A study of Mus musculus with 9 samples.

Results

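The 10 genes described here belong to the Wnt pathway: the ligand gene Wnt5a, the secreted antagonist genes Sfrp1, Sfrp2, Dkk2 and Dkk3, the intracellular inhibitor genes Axin2, Nkd1 and Dact1, the nuclear factor gene Lef1 and the target gene Ccn4, also called Wisp1. They were taken by symbol from a table of 38924 genes, and all 10 were found and passed the filter on low counts in every comparison. They were chosen by a rule that used their CPM by group in these libraries, so their differences between groups are given as a description of selected genes and support nothing by themselves. The RNA came from primary cardiac fibroblasts, taken from adult mice 8 to 10 weeks old of genotype Cas9GFP on a C57BL/6 background, a model in which all 9 libraries carry Cas9 and green fluorescent protein at the Rosa locus. Before sorting as CD45-CD31-CD90+ the cells had spent 3 days in culture, and they were transfected 6 days after replating, at 80 to 90% confluency. Control cells received scrambled guide RNAs, Gata4 KD cells 2 guide RNAs against Gata4, and Tbx20 KD cells 2 guide RNAs against Tbx20, both genes of cardiac transcription factors, with 3 libraries per group lettered a, b and c. Transfected populations were sequenced whole, without picking clones, so edited and unedited cells were read together.

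Wnt proteins are secreted, lipid-bearing signals that bind Frizzled receptors. In the canonical branch this stops a cytoplasmic complex of Axin, APC and GSK3 kinases from marking beta-catenin for destruction, and beta-catenin then acts in the nucleus with TCF and LEF factors. Other branches, for which Wnt5a is a typical ligand, act on cell polarity and movement without beta-catenin. Secreted Frizzled-related proteins bind Wnts outside the cell, and Dickkopf proteins such as Dkk2 act at the LRP co-receptors. Cardiac fibroblasts are known to use Wnt signals in scar formation after injury.

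The libraries held 31214828 to 41950397 counts in total (median 36270725). The guides' targets were lower in the libraries that carried them. Gata4 stood at 54.0, 46.7 and 65.5 CPM (read counts scaled to a common depth over the 9 libraries) in Gata4 KD a, b and c against 166, 155 and 167 CPM in control. Tbx20 stood at 320, 426 and 428 CPM in Tbx20 KD against 1010, 1276 and 720 CPM in control, without overlap, although this difference did not pass the threshold over all genes (adjusted p = 0.748, edgeR's quasi-likelihood test). It passed in DESeq2 (adjusted p = 3.47e-08) and in edgeR without the low-count filter (0.0318). In Gata4 KD, Tbx20 stood at 674, 513 and 909 CPM, overlapping control (log2 fold change -0.52, adjusted p = 0.636, edgeR's quasi-likelihood test). Gata4 was higher in each Tbx20 KD library (178, 192 and 198 CPM) than in any control library, a difference that was not called. The 8 fibroblast markers examined summed to 11496 to 12285 CPM in control, 8902 to 11467 CPM in Gata4 KD, below every control library, and 11100 to 12880 CPM in Tbx20 KD. Most of that sum was Col1a1, Col1a2 and Vim. Col1a1, Vim and Tcf21 were lower in every Gata4 KD library than in any control library, whereas the other fibroblast markers overlapped control. Among the latter, Pdgfra stood at 563, 512 and 668 CPM in Gata4 KD a, b and c against 441, 524 and 384 CPM in control. Over the 9 libraries, 6 leukocyte markers summed to 24.5 to 52.2 CPM and 6 endothelial markers to 35.1 to 55.5 CPM. Both sums overlapped control in Gata4 KD, but Kdr and Csf1r did not. Kdr stood at 5.45, 6.19 and 5.06 CPM in Gata4 KD a, b and c and 2.75, 3.47 and 2.29 CPM in control. It was called in Gata4 KD against Tbx20 KD. Csf1r stood at 7.44, 5.29 and 6.59 CPM in Gata4 KD and at 8.37 CPM or more in control. The other leukocyte and endothelial markers overlapped control. Tek, the highest endothelial marker, was below control in Gata4 KD a and b only. In Gata4 KD the 6 cardiomyocyte markers summed to 8.67 to 9.67 CPM, against 24.5 to 31.2 CPM in control and 21.8 to 27.0 CPM in Tbx20 KD. Nearly all of that sum was Tnnt2, and Nppa was at 0 in every library. The 6 epicardial markers summed to 9.44 to 17.2 CPM in Gata4 KD, 25.5 to 49.2 CPM in control and 27.1 to 44.0 CPM in Tbx20 KD, and the 6 mural cell markers to 10.7 to 14.1, 8.74 to 10.5 and 8.997 to 10.04 CPM. Lrrn4 made up most of the epicardial difference. It stood at 32.5, 15.7 and 26.3 CPM in control a, b and c and 2.74, 2.09 and 2.32 CPM in Gata4 KD. Upk3b and Upk1b were also lower in every Gata4 KD library than in any control library, while Msln and Wt1 overlapped control. Krt19 was higher in Gata4 KD a and b (9.55 and 11.9 CPM) and lower in c (4.15 CPM) than in any control library. Of the mural cell markers, only Rgs5 was higher in every Gata4 KD library than in any control library. Rgs5 stood at 4.69, 4.02 and 6.34 CPM in Gata4 KD a, b and c and 2.59, 3.41 and 1.90 CPM in control. The fibroblast, cardiomyocyte, epicardial and mural cell sums, Kdr and Csf1r move with Gata4 KD, as some of the genes below do. The part of these markers in those differences was not tested. In bulk RNA, fewer cells of a type and less RNA per cell cannot be told apart.

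In control fibroblasts the 10 genes spanned a wide range of levels per length (CPM per kilobase of merged exon). Ccn4, which encodes a secreted matrix-associated CCN protein, was the highest at 55.8 ± 7.78 (SD, n = 3). Sfrp1 followed at 40.3 ± 12.6, and the ranges of these neighbours overlapped. Dact1, whose product binds Dishevelled inside the cell, stood at 22.8 ± 2.33, apart from the genes above and below it. Dkk2 at 9.51 ± 0.346, Dkk3 at 8.48 ± 2.13 and Wnt5a at 7.97 ± 1.05 formed a group in which each range overlapped the next. Sfrp2 lay lower at 1.74 ± 0.111. Of the canonical branch, the inhibitors Nkd1 and Axin2 and the nuclear factor Lef1 were the lowest: Nkd1 at 0.197 ± 0.0281, Lef1 at 0.109 ± 0.0293 and Axin2 at 0.0992 ± 0.0379, the last pair overlapping. Per length of the longest transcript Lef1, at 0.262, passed above Nkd1, at 0.22, and Wnt5a, at 8.895, passed above Dkk3, at 8.48. Over the 9 libraries Axin2 was read with 7 to 28 counts, Nkd1 with 15 to 37 and Lef1 with 22 to 64, whereas Ccn4 was read with 7530 to 17949.

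**Figure D1:**
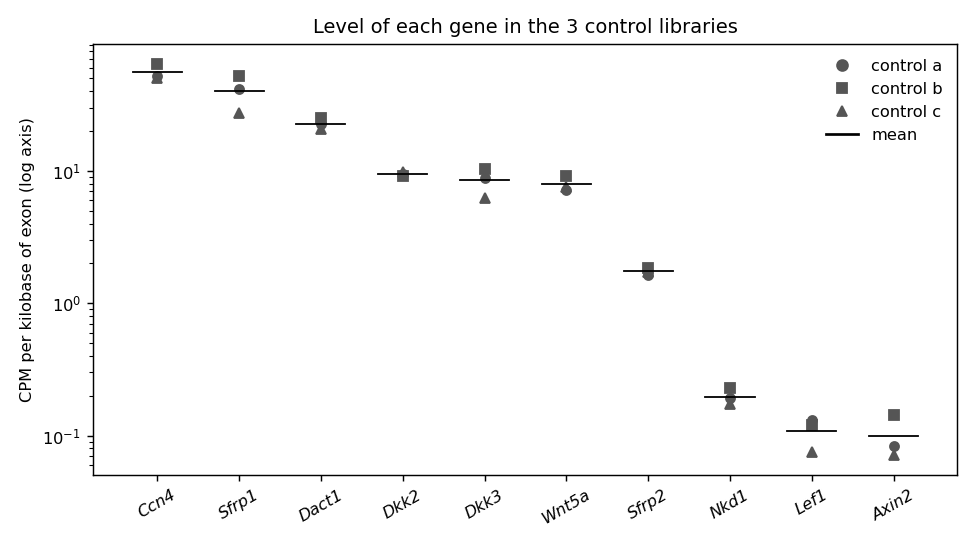
Level of each of the 10 genes in control a, b and c in CPM per kilobase of merged exon, on a log axis, with the mean as a line. Ccn4 lies highest with a mean of 55.8 and Axin2 lowest with a mean of 0.0992.

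For the comparison of Gata4 KD with control, edgeR's quasi-likelihood test on 6 libraries called 0 of the 10 genes at an adjusted p under 0.05, where 0.38% of 14468 genes tested were called. Unadjusted p was under 0.05 for 3 of the 10 and for 8.54% of all genes tested, and DESeq2 called 1 of the 10, Dact1, among 264 genes. The groups did not overlap in CPM for 4 of the 10 (Wnt5a, Nkd1, Dact1 and Ccn4), where this held for 13.8% of all genes tested. For Tbx20 KD against control, the same test called 0 of 10 (background 0.00687% of 14547), with unadjusted p under 0.05 for 2 of the 10 and 2.69% of all genes, and with 1 call, Ccn4, among 12 genes by DESeq2. Here the groups were apart for 2 genes, Nkd1 and Ccn4 (background 6.74%). Between the knockdowns, Gata4 KD against Tbx20 KD, 2 of 10 passed (background 1.44% of 14477), Wnt5a higher and Ccn4 lower in Gata4 KD, and 4 had no overlap (background 23%): Wnt5a, Dact1, Lef1 and Ccn4. As these levels were in view when the genes were chosen, nothing is read from the counts against their background. The median log2 fold change of the 10 genes was -0.30, -0.06 and -0.36 in the 3 comparisons in this order, beside -0.02, -0.00 and -0.01 over all genes tested. Each group enters a pair of these comparisons, so they are not independent of one another.

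**Figure D2:**
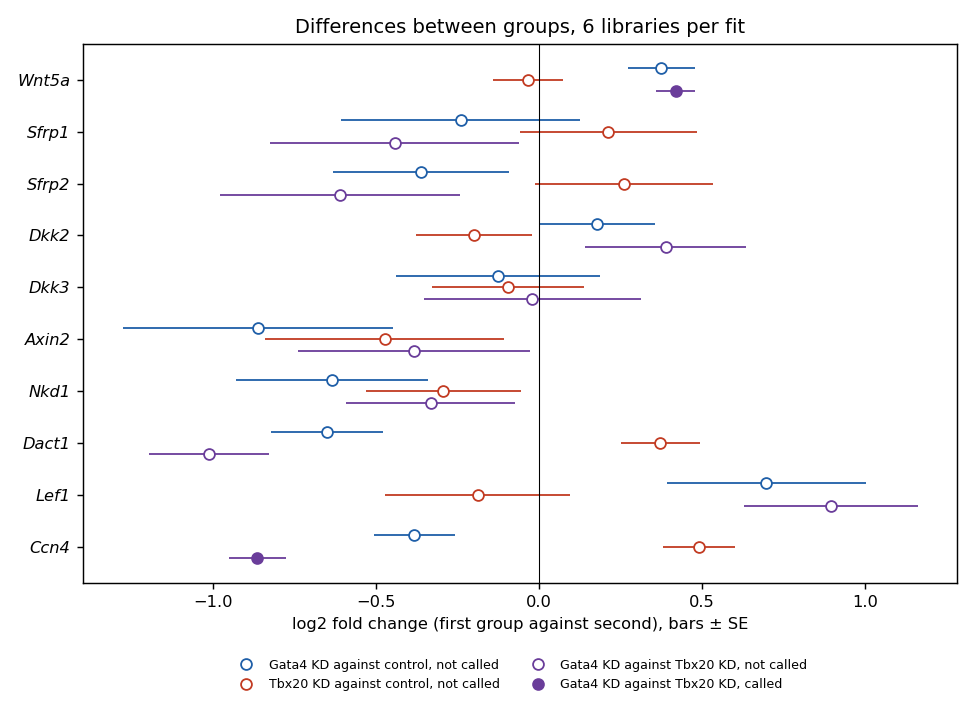
Log2 fold change of each gene in the 3 comparisons, first group named against the second, with bars of 1 SE from the fit on 6 libraries. Filled points passed an adjusted p of 0.05: Wnt5a at 0.42 and Ccn4 at -0.86 in Gata4 KD against Tbx20 KD.

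Ccn4 was the gene in which all 3 groups stood apart. The libraries of Gata4 KD a, b and c held 237, 211 and 266 CPM, those of control 290, 360 and 281 CPM, and those of Tbx20 KD 408, 447 and 445 CPM. Every Gata4 KD library was thus below every control library, and every Tbx20 KD library above. Ccn4 was 1.82-fold higher in Tbx20 KD than in Gata4 KD, and with Gata4 KD as the first group the log2 difference was -0.86 (SE 0.09, adjusted p = 0.00754, edgeR's quasi-likelihood test). Against control, neither knockdown passed: the log2 fold change was -0.38 (SE 0.12, adjusted p = 0.388) in Gata4 KD and 0.49 (SE 0.11, adjusted p = 1.0) in Tbx20 KD. The call between the knockdowns depended on single libraries, since the adjusted p was 0.0801 without Gata4 KD a, 0.0552 without Tbx20 KD b and 0.0644 without Tbx20 KD c. In Tbx20 KD against control Ccn4 passed in DESeq2 (adjusted p = 0.0496) and, in edgeR, without control b (adjusted p = 0.0453). Ccn4 (ENSMUSG00000005124) lies on chromosome 15, chr15:66891320-66923201, plus strand, in GENCODE M21 on GRCm38.

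Dact1 (ENSMUSG00000044548, chr12:71309884-71320107, plus strand) held the same order of groups. It was read at 47.2, 45.5 and 71.1 CPM in Gata4 KD a, b and c, at 84.9, 94.9 and 77.4 CPM in control and at 92.8, 122 and 116 CPM in Tbx20 KD. All Gata4 KD libraries were below the other 6, with Gata4 KD c nearest to them, and the ranges of control and Tbx20 KD overlapped between control b and Tbx20 KD a. The level was 2.02-fold higher in Tbx20 KD than in Gata4 KD, and the log2 difference of -1.01 (SE 0.18) had an adjusted p of 0.0504 in edgeR's quasi-likelihood test, just outside the threshold. Without Gata4 KD c the adjusted p was 0.00268, and it was also under the threshold with library sizes alone, without the low-count filter, with all 9 libraries in 1 fit and in DESeq2. Leaving out any of the other 5 libraries gave 0.0547 to 0.217. Against control, Dact1 differed by -0.65 (SE 0.17, adjusted p = 0.24) in Gata4 KD and by 0.37 (SE 0.12, adjusted p = 1.0) in Tbx20 KD. The first of these passed in DESeq2 (adjusted p = 0.0245) and, in edgeR, without Gata4 KD c (adjusted p = 0.0345).

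The sequence before the start of Dact1 is shown because this gene had the largest difference in size between the knockdowns among the 10 and its RefSeq promoter window held a GATA motif. The 250 bases upstream, chr12:71309634-71309883 (GRCm38.p6, plus strand), contain 41 CG dinucleotides and 80.4% G and C, and overlap no exon of GENCODE M21. Capitals mark the match to TGATAA, read on the opposite strand, 19 bases before the start.
Dact1 upstream: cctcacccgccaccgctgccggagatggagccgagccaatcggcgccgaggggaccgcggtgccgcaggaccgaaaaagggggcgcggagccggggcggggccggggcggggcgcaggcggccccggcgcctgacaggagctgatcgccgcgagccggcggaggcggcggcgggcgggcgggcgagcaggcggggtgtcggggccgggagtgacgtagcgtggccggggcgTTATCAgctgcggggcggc
Windows from 250 bases before to 50 bases after the start were given for 6 of the 10 genes, with 9 windows in all. They were searched on both strands. For TCF/LEF factors the letters were CTTTGAT, and windows holding the related form CTTTGAA were counted with them. For GATA factors the letters were AGATAA, and windows holding the related form TGATAA were counted with them. For T-box factors the letters were AGGTGT. These are held by 8.65%, 18.6% and 13.7% of the 32851 windows of the RefSeq table. No window of the 6 genes held the TCF/LEF letters, and those of Sfrp2, Dkk2 and Axin2 held none of the motifs. The Nkd1 window held 1 T-box match, 133 bases before its RefSeq start at chr8:88527500-88527505, and 1 of the Lef1 windows held a pair of them, at chr3:131112560-131112565 and chr3:131112784-131112789, on the opposite strand. Another Lef1 window held 2 GATA matches and 1 T-box match, of which the GATA match at chr3:131156099-131156104 lies before the start. The starts of these Nkd1 and Lef1 windows lie inside the genes, 6.28 kb past the gene start of GENCODE M21 in Nkd1 and 2.32 and 45.8 kb past it in Lef1. The Nkd1 and Lef1 matches that lie before a RefSeq start, in capitals with 11 bases on either side, read as follows.
Nkd1 T-box: tgtccagggacAGGTGTgtgaggccgcc
Lef1 T-box, 231 bases before the start: ccccacagcccACACCTtagcggccact
Lef1 T-box, 7 bases before the start: tgcttttaagaACACCTcagagttacct
Lef1 GATA, 195 bases before the start: catcaataaggTGATAAaatacatggtc
These are matches of letters, and binding at them was not measured here. Promoter windows of Ccn4, Wnt5a, Sfrp1 and Dkk3 were not analysed here.

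Wnt5a went the other way from Ccn4. It stood at 78.2, 81.5 and 83.1 CPM in Gata4 KD, 56.1, 71.6 and 59.3 CPM in control and 64.9, 57.1 and 59.5 CPM in Tbx20 KD. The Gata4 KD libraries lay close together and above the other 6, whereas control and Tbx20 KD overlapped throughout. Wnt5a was 1.34-fold higher in Gata4 KD than in Tbx20 KD (log2 fold change 0.42, SE 0.06, adjusted p = 0.0251, edgeR's quasi-likelihood test). This call ended when Gata4 KD a (adjusted p = 0.101), Gata4 KD b (0.0848), Tbx20 KD b (0.133) or Tbx20 KD c (0.152) was left out, and with all 9 libraries in 1 fit (0.0692), and it held in 5 of 11 alternatives. Against control the difference was 0.38 (SE 0.10, adjusted p = 0.261) in Gata4 KD and -0.03 (SE 0.11, adjusted p = 1.0) in Tbx20 KD, and the former passed without control b (adjusted p = 0.0279). Wnt5a (ENSMUSG00000021994) lies at chr14:28504750-28527448 on the plus strand.

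**Figure D3:**
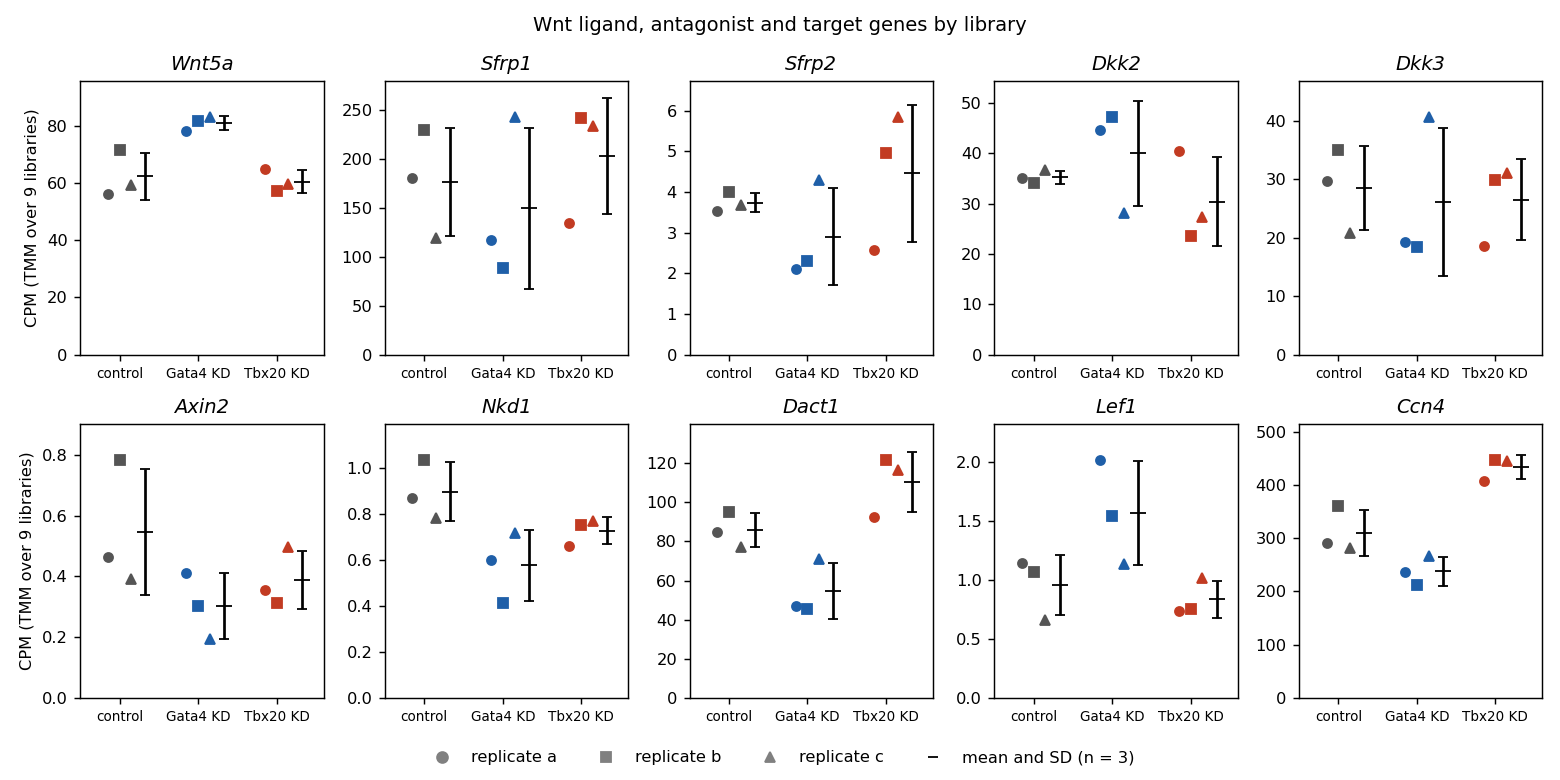
CPM of each gene in every library, scaled over the 9 libraries, with circles, squares and triangles for replicates a, b and c and the mean with SD (n = 3) beside each group. Ccn4 separates all 3 groups, Wnt5a separates Gata4 KD from the rest, and the spread of Sfrp1 within Gata4 KD runs from 88.0 to 243 CPM.

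In each of the 4 secreted antagonists, the largest SD within a group exceeded the largest difference between group means. Sfrp1, a Wnt-binding protein, was read at 181, 229 and 119 CPM in control a, b and c, at 117, 88.0 and 243 CPM in Gata4 KD and at 135, 241 and 233 CPM in Tbx20 KD. Its SD of 82.3 CPM in Gata4 KD exceeded the difference between any pair of group means, which were 176, 149 and 203 CPM. Log2 fold changes were -0.24 (SE 0.37) in Gata4 KD and 0.21 (SE 0.27) in Tbx20 KD against control, and neither was called. The sign of the first turned in 1 of 11 alternatives.

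Dkk3, a divergent member of the Dickkopf family, followed the pattern of Sfrp1 by library. It held 29.7, 35.0 and 20.8 CPM in control, 19.2, 18.4 and 40.7 CPM in Gata4 KD and 18.6, 29.9 and 31.1 CPM in Tbx20 KD. Dkk2, which acts at the LRP co-receptors, showed the inverse, with 35.1, 34.1 and 36.6 CPM in control, 44.5, 47.2 and 28.1 CPM in Gata4 KD and 40.4, 23.5 and 27.3 CPM in Tbx20 KD. The log2 fold change of Dkk3 was -0.13 (SE 0.31) in Gata4 KD and -0.09 (SE 0.23) in Tbx20 KD, with a sign that turned in 3 and 2 of 11 alternatives, while that of Dkk2 was 0.18 (SE 0.18) and -0.20 (SE 0.18). Sfrp2, a relative of Sfrp1, stood at 3.54, 4.003 and 3.68 CPM in control, 2.11, 2.31 and 4.29 CPM in Gata4 KD and 2.58, 4.95 and 5.85 CPM in Tbx20 KD. Both knockdowns overlapped control for all 4 antagonists, and none of them was called in any comparison.

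In Sfrp1, the 4 lowest libraries were control c, Gata4 KD a, Gata4 KD b and Tbx20 KD a, at 88.0 to 135 CPM against 181 to 243 CPM in the other 5. The same 4 libraries were the lowest in Dkk3 (18.4 to 20.8 against 29.7 to 40.7 CPM) and the highest in Dkk2 (36.6 to 47.2 against 23.5 to 35.1 CPM). They take in 1 control, 2 Gata4 KD and 1 Tbx20 KD library. This order of libraries was noticed after the values were seen and is given as a description. It was shared by 2 of the 9 other genes, by 13 of 84 further Wnt pathway genes in the fits (15.5%), and by 8.53% of 14721 genes fitted in at least 1 comparison, so it extended well beyond the antagonists. Among the 13, Frzb, Fzd2, Fzd4, Ptk7, Apc2, Ctnnb1, Dact3, Apcdd1 and Ccn5 were lowest in the 4 libraries, and Axin1, Znrf3, Cd44 and Fosl1 were highest. Of 38 cell type markers 4 shared the order, the fibroblast markers Col1a2 and Dcn, the macrophage marker Adgre1 and the endothelial marker Tek, all lowest in the 4 libraries, and the others did not. The labels name no batch for these libraries, and the part of this order in the differences between groups was not tested.

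**Figure D4:**
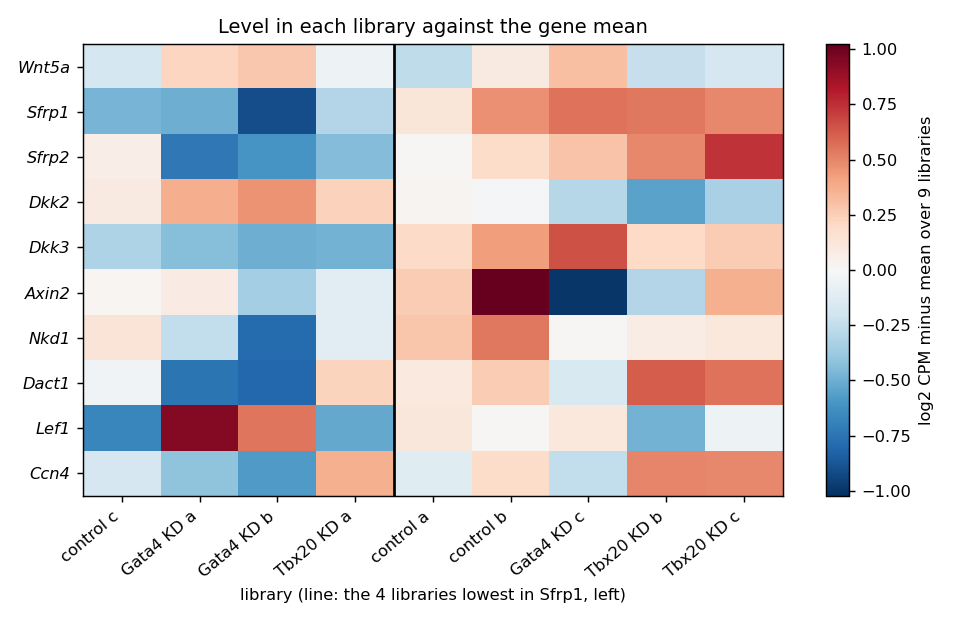
Log2 CPM of each gene in each library minus its mean over the 9 libraries, with the 4 libraries lowest in Sfrp1 to the left of the line. Sfrp1 and Dkk3 are lower and Dkk2 is higher in those 4 than in the other 5.

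Axin2, Nkd1 and Lef1 were read with few counts. Axin2, a scaffold of the beta-catenin destruction complex and a common readout of canonical signalling, held 0.463, 0.784 and 0.392 CPM in control, 0.410, 0.303 and 0.194 CPM in Gata4 KD and 0.355, 0.313 and 0.496 CPM in Tbx20 KD. The groups overlapped, and at 7 to 28 counts per library the log2 difference of -0.86 between Gata4 KD and control carried an SE of 0.41 (adjusted p = 0.65). Nkd1, a Dishevelled-binding inhibitor, was higher in each control library (0.871, 1.04 and 0.783 CPM) than in any Gata4 KD library (0.599, 0.413 and 0.719 CPM) or Tbx20 KD library (0.662, 0.752 and 0.769 CPM). These differences of -0.64 (SE 0.30, adjusted p = 0.636) and -0.29 (SE 0.24, adjusted p = 1.0) on the log2 scale did not pass, and control c and Tbx20 KD c were only 0.0147 CPM apart.

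Lef1, a partner of beta-catenin on DNA, stood at 2.02, 1.54 and 1.13 CPM in Gata4 KD, 1.14, 1.06 and 0.663 CPM in control and 0.733, 0.752 and 1.02 CPM in Tbx20 KD. Gata4 KD was above Tbx20 KD in every library and overlapped control in Gata4 KD c and control a. The log2 fold change of Gata4 KD against Tbx20 KD was 0.90 (SE 0.27, adjusted p = 0.159), and against control it was 0.70 (SE 0.31, adjusted p = 0.587).

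A list of 116 other Wnt pathway genes in 11 roles was examined beside the 10. Of 83 tested in Gata4 KD against control and 84 in Tbx20 KD against control, edgeR's quasi-likelihood test called 0 in each, with unadjusted p under 0.05 for 10 (12.05%, against 8.54% of all genes tested) and 3 (3.57% against 2.69%). DESeq2 called 3 of them, Wnt9a, Wnt11 and Fzd7, in the first comparison and 0 in the second. Their groups were apart in 14 genes (16.9%, background 13.8%) and 5 genes (5.95%, background 6.74%), and their median log2 fold changes were 0.05 and 0.03. In Gata4 KD against Tbx20 KD, 3 of 84 passed (3.57%, background 1.44%), 2 higher and 1 lower in Gata4 KD, 22 had no overlap (26.2%, background 23%), and the median was 0.02.

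The called genes were a ligand, a receptor and a corepressor. Wnt11, a ligand of the branches without beta-catenin, stood at 3.65, 2.67 and 3.02 CPM in Gata4 KD, 1.44, 1.72 and 1.59 CPM in Tbx20 KD and 1.69, 1.32 and 1.63 CPM in control, and rose 1.96-fold over Tbx20 KD (log2 fold change 0.97, SE 0.17, adjusted p = 0.0449). Fzd7, a Frizzled receptor, stood at 59.1, 62.1 and 52.3 CPM in Gata4 KD, 42.04, 42.6 and 41.2 CPM in Tbx20 KD and 40.1, 47.6 and 35.4 CPM in control (0.46, SE 0.07, adjusted p = 0.0292). Tle3, a Groucho-type corepressor that binds TCF and LEF factors, was lower in Gata4 KD at 63.0, 59.7 and 64.5 CPM than in Tbx20 KD at 74.2, 76.6 and 75.4 CPM (-0.27, SE 0.05, adjusted p = 0.0457). Control lay between them: over the alternatives the log2 fold change against control was -0.17 to -0.10 in Gata4 KD and 0.12 to 0.18 in Tbx20 KD, none called. For both Wnt11 and Fzd7, as for Wnt5a, the 3 Gata4 KD libraries exceeded all control libraries, but none of the differences from control passed in edgeR's test on 6 libraries. In DESeq2 those of Wnt11 (adjusted p = 0.00929) and Fzd7 (0.0276) passed, as did Wnt11 with all 9 libraries in 1 edgeR fit (0.0312) and Fzd7 in edgeR without control b (0.0409). Wnt9a, also called by DESeq2 against control, went the other way. It stood at 2.71, 1.98 and 3.04 CPM in Gata4 KD a, b and c, below control at 5.14, 4.79 and 3.89 CPM. The calls between the knockdowns were fragile: Wnt11 and Fzd7 passed in 5 and Tle3 in 4 of 11 alternatives, and leaving out Gata4 KD a or b or any 1 of the Tbx20 KD libraries left 0 of the 84 called.

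**Figure D5:**
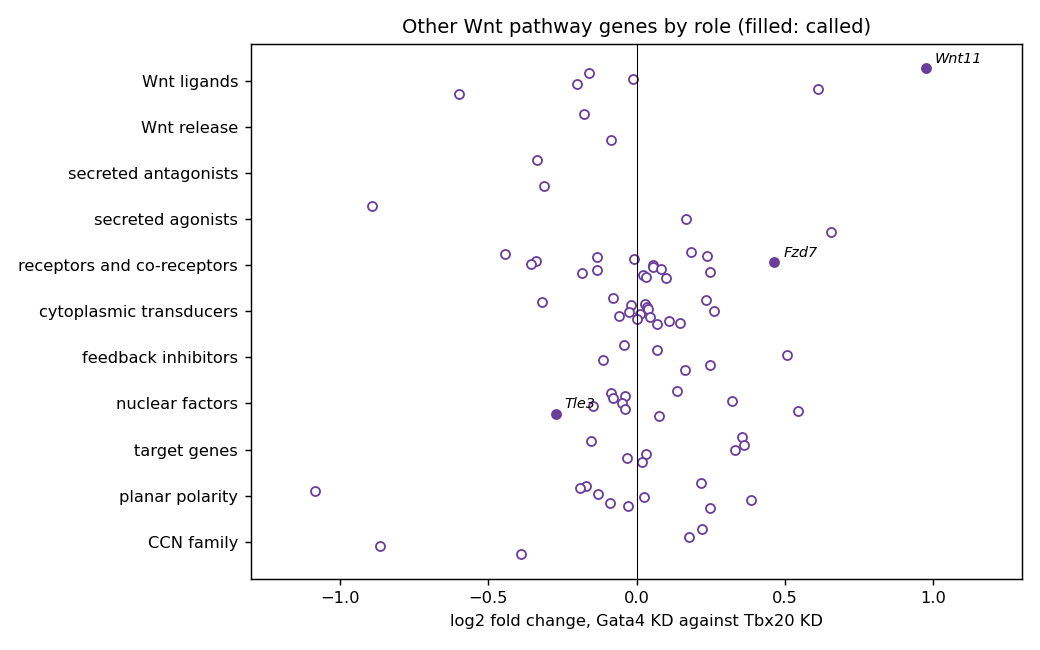
Log2 fold change in Gata4 KD against Tbx20 KD of the 84 other Wnt pathway genes tested, 1 point per gene, by role. Filled points passed an adjusted p of 0.05: Wnt11 at 0.97, Fzd7 at 0.46 and Tle3 at -0.27.

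The other roles place the 10 genes among their neighbours. Of 18 other Wnt ligand genes, 13 were below 1 CPM in every library, whereas Wnt5a was at 56.1 CPM or more in each. The highest of the others per length was Wnt9a, at 4.61 ± 0.647 CPM in control (SD, n = 3). Of 10 other secreted antagonist genes 8 were below 1 CPM in every library, and Frzb, a relative of Sfrp1, was the highest per length at 312 ± 77.0 CPM in control. Of 21 receptors and co-receptors 15 reached 1 CPM per kilobase over the 9 libraries, led by Ryk at 144 ± 7.67 CPM and Ptk7 at 165 ± 12.7 CPM in control. All but 1 of 16 cytoplasmic transducers reached that level, led by Ctnnb1, which encodes beta-catenin, at 586 ± 18.8 CPM in control, 582 ± 13.7 CPM in Gata4 KD and 592 ± 19.2 CPM in Tbx20 KD.

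Wls, needed for Wnt release, stood at 461 ± 50.5 CPM in control. The highest genes per length of the feedback inhibitors were Nkd2 (50.2 ± 4.31 CPM) and Dact3 (30.1 ± 3.21 CPM), relatives of Nkd1 and Dact1, and those of the nuclear factors were Pygo2 (49.7 ± 2.33 CPM) and Bcl9l (99.7 ± 5.38 CPM), all in control. The kinase Csnk1a1 stood at 396 ± 91.9 CPM in control. Among target genes Ccnd1 stood at 518 ± 26.4 CPM and Cd44 at 507 ± 17.8 CPM in control, and among planar polarity genes Daam1 stood at 130 ± 16.9 CPM and Rhou at 42.6 ± 2.36 CPM. In the CCN family, Ccn2 and Ccn1 were above Ccn4 per length, with means over the 9 libraries of 462, 270.1 and 58.8 CPM per kilobase. In control Ccn2 stood at 1328 ± 186 CPM and Ccn1 at 556 ± 95.9 CPM. Neither of these relatives was called: Ccn2 stood at 1399 ± 135 CPM in Gata4 KD and 1237 ± 94.1 CPM in Tbx20 KD, and Ccn1 at 581 ± 93.4 and 499 ± 102 CPM.

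For each of the 10 genes, the gene with the most similar level over the 9 libraries was looked up among 10014 genes with a mean of at least 5 CPM, by Pearson's r of log2 CPM. These values rest on 9 points that share the libraries and the group differences, and they are given without a test. Ccn4 was most like Gucy1b1 (r = 0.98), which stood at 125 CPM in Gata4 KD, 173 CPM in control and 231 CPM in Tbx20 KD on average, followed by Lclat1 (0.96) and Ube2l6 (0.96). Dact1 was most like Zbtb7c (0.99), at 9.29, 16.9 and 21.2 CPM in the same order, and Wnt5a was most like Klf7 (0.99), at 63.0, 55.7 and 55.5 CPM. Sfrp1 was most like Dpt (0.99), Dkk2 like Eaf1 (0.98) and Dkk3 like Dlg2 (0.98). Sfrp2 was most like Armcx6 (0.96), Snx33 (0.95) and Rasl11b (0.95). The scarce genes Lef1, Nkd1 and Axin2 were most like Mgat5 (0.97), Ppic (0.97) and Steap2 (0.90).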

How the data were processed

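Primary cardiac fibroblasts of 3 groups with 3 libraries each were sequenced as 75 base single-end mRNA reads. Reads were trimmed on quality scores by the authors, who obtained expected counts per gene from RSEM with Bowtie2 alignments to GRCm38. Per the labels the tools were Bowtie and RSEM with build mm9. The table gives Ensembl IDs only, and the deposited expected counts are whole numbers without normalization. Positions and exon lengths came from GENCODE M21 (GRCm38), and promoter windows from RefSeq (GRCm38.p6). No 75 base window of the 10 genes occurred in another gene.

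Each comparison was fitted on its own 6 libraries in R 4.3.3 with edgeR 4.0.16 (filterByExpr, TMM, glmQLFit, glmQLFTest), with Benjamini-Hochberg adjustment over all genes tested and a threshold of 0.05. SE is the log2 fold change divided by the root of F. CPM used TMM factors over the 9 libraries, and similarity used log2 CPM with a prior count of 2. The procedure was also run on simulated counts for Gata4 KD against control, drawn independently for each library. That run did not cover the comparison between the knockdowns or an order shared by libraries. The smallest exact permutation p of 3 against 3 libraries is 0.1, so none was used. The labels do not say that libraries came from separate animals, so p-values measure the spread between these libraries, and no batch is named. Alternatives were library size alone, DESeq2 1.42.0, no filter, all 9 libraries in 1 fit, the replicate letter as a block, leaving out each library, and, for levels, the longest transcript.

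The members and lists were chosen with earlier results of these data known. Named were the 10 genes, Gata4, Tbx20, listed pathway genes past the threshold, the 2 highest per length in each list where at least 1 CPM per kilobase, and the most similar gene of each member (3 for Ccn4 and Sfrp2). Genes sharing the order of 4 libraries were named after their values were seen.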

Additional observations from a re-analysis of the deposited data

How the results depend on the processing

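Genes called in Gata4 KD against control (55) numbered 264 in DESeq2, 121 without the low-count filter, 148 with all 9 libraries in 1 fit, 5 with the replicate block, and 6 to 189 when 1 library was left out. Those in Tbx20 KD against control (1) numbered 12, 2 and 2 in DESeq2, without the filter and with the replicate block, and 1 to 5 with 1 library left out. Those in Gata4 KD against Tbx20 KD (208) numbered 743, 324 and 101 under the same settings, and 22 to 801 with 1 library left out. Of the 10 genes, DESeq2 called 1 in each knockdown against control. Leaving out 1 library gave 0 to 1 in each of these comparisons and 0 to 3 between the knockdowns. Of the listed pathway genes, DESeq2 called 3 and all 9 libraries in 1 fit called 1 in Gata4 KD against control, with 0 to 1 when 1 library was left out. Between the knockdowns they were 10 in DESeq2, 1 with all 9 libraries and 1 with the replicate block, with 0 to 7 when 1 library was left out. The causes were not tested. All 330 refitted log2 fold changes of the 10 genes stayed within 1 SD of the libraries, a wide measure that does not show stability. The sign turned for Sfrp1 in Gata4 KD against control (1 of 11 alternatives) and for Wnt5a in Tbx20 KD against control (2 of 11). For Dkk3 it turned in 3, 2 and 4 of 11 in Gata4 KD against control, Tbx20 KD against control and between the knockdowns. In control, Sfrp2 and Lef1 stood at 1.87 and 0.262 CPM per kilobase of the longest transcript. Deviations of libraries with the same letter correlated between -0.19 and 0.26, so the letters were not taken as pairs. Under the replicate block Wnt5a lost its call between the knockdowns (adjusted p = 0.0668) and Dact1 gained one (adjusted p = 0.0451). Axin2, Nkd1 and Lef1 were read with 7 to 64 counts per library and had SEs of log2 fold changes of 0.24 to 0.41. Sfrp1, with 3197 to 9405 counts, had SEs of 0.27 to 0.38. The part of depth in these errors was not tested.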
